A study of Mus musculus with 24 samples.

Results

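The olfactory receptor genes around the beta-globin locus were taken as the protein-coding genes of GENCODE vM21 (mouse build mm10) whose symbol begins with Olfr and which lie in the 7 Mb of chromosome 7 that surround it. The rule gave 197 genes of 21755 protein-coding genes, and it used no measured value. They fall into 4 blocks, cut wherever neighbouring genes were 300 kb or more apart. Block 1 holds 95 genes from Olfr543 to Olfr649 (chr7:102476579-104195985) and contains the beta-globin genes. Block 2 holds 34 genes from Olfr651 to Olfr692 (chr7:104550133-105369355), block 3 holds 26 from Olfr693 to Olfr716 (chr7:106675005-107150581), and block 4 holds 42 from Olfr467 to Olfr519 (chr7:107812263-108894420). The 5 Hbb genes sit in the gap between Olfr67 and Olfr66, chr7:103791822-103879442, which is 87.6 kb long.

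Olfactory receptors are G protein-coupled receptors of the sensory neurons of the nose, and each neuron expresses a single receptor allele. The class I receptors, the family members most like those of fish, are clustered on the chromosome that carries beta-globin, and the globin genes are embedded in that cluster. The Hbb genes are driven in red cell precursors by a locus control region, a group of nuclease-hypersensitive sites upstream of the genes, and further hypersensitive sites are known among the receptor genes beyond it. The receptor genes themselves are not known to work in blood cells, so the question asked of these data was how much accessible chromatin was called around them, and in which blood cell types.

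The study assayed accessible chromatin by ATAC-seq, in which the Tn5 transposase inserts sequencing adapters into open DNA, and deposited 1 list of called peaks for each of 24 libraries, 2 for each of 12 cell types. The 10 primary types came from adult C57BL6 mice. Those of the bone marrow were the stem and multipotent cells named LSK for their surface markers (no lineage markers, Sca1 and Kit present), the progenitors CMP (common myeloid), GMP (granulocyte and monocyte) and MEP (megakaryocyte and erythrocyte), the red cell precursors CFUE (colony forming unit erythroid) and ERY (erythroblasts), and the megakaryocyte precursors CFUMK (their colony forming unit) and iMK (immature megakaryocytes). MON (monocytes) and NEU (neutrophils) were taken from peripheral blood. The 2 cell lines were G1E, an erythroid-committed line without GATA1, a transcription factor of red cell development, and G1E-ER4+E2, a single clone of it that carries GATA1 fused to an estrogen receptor domain and activated with estradiol. The study describes its replicates as biological, either from separate groups of mice or as separately processed aliquots of one sort, and the labels do not say which, so the p-values below measure only the spread between such libraries.

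The lists held 52720 to 230877 peaks, 3430812 in all, nearly all 150 bp wide. Read counts under the peaks are not in the lists, so a list's length stands in for depth, and each value below is a number of called peaks, as a count or per 100000 called peaks of the same list. Peaks overlapped by one in the second library of their type made up from 48.5% (MON 1) to 89.8% (GMP 2) of a list. Promoter peaks were called for 6 of 6 erythroid marker genes in every CFUE, ERY and G1E-ER4+E2 library and for 5 of 6 in G1E, MEP and CFUMK. All 5 stem and progenitor markers were called in LSK, but also in CMP, GMP, MEP and CFUMK, and LSK had 5 to 6 of 6 megakaryocyte, 1 to 5 of 5 monocyte and 3 to 5 of 6 neutrophil markers. In iMK, 3 to 5 of 6 megakaryocyte markers were called, along with 5 of 5 monocyte and 5 of 6 neutrophil markers. Neutrophils had 3 to 4 of 6 neutrophil markers and 5 of 5 B cell markers, and monocytes had 4 of 5 monocyte markers. The part of other cells in the values below was not tested.

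Few peaks were called around the receptor genes. Peaks were counted for each gene in a window that took in the gene body and flanks of 20 kb. The median gene had 0.708 peaks per list, averaged over the 24 lists, with a range from 0.0417 to 9.21. The median was 0.25 for the 938 Olfr genes elsewhere in the genome, 7.0 for the 73 other protein-coding genes of the same interval and 8.08 for all remaining protein-coding genes. The receptor genes were also shorter, with a median length of 5731 bp against 11819 bp for their neighbours. A mean of at least 3 peaks per list was reached by 28 of the 197 genes (14.2%), compared with 6.61% of other Olfr genes, 83.6% of the neighbours and 82.2% of the rest. The other 169 could not be tested one by one, and nothing below speaks for them except where they are counted.

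The blocks differed in how many peaks their genes had. The median mean count was 1.0 peak in block 1, 0.708 in block 2, 1.48 in block 3 and 0.333 in block 4, and the 28 genes that reached the minimum were 21 of block 1, 1 of block 2 and 6 of block 3. Every one of the 197 windows held a peak in some library, and 12 held one in all 24. The number of windows with a peak was highest in iMK 2 (157) and CFUE 1 (144) and lowest in the cell lines (34 to 37). Neighbouring windows overlap, with a median of 4 others touching each one, so many windows share the same peaks.

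**Figure D1:**
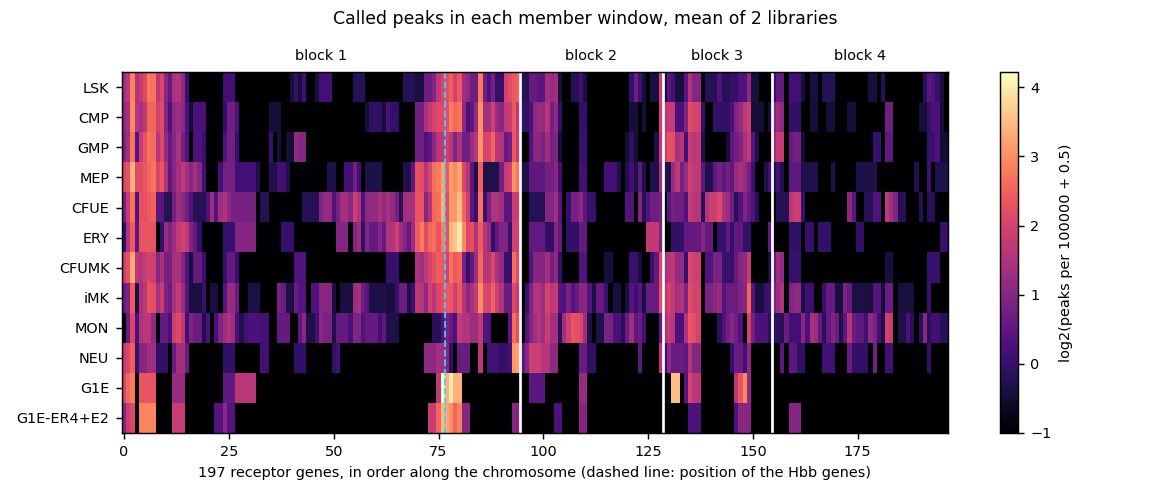
Heat map of the 197 receptor genes in chromosome order (columns) against the 12 cell types (rows), coloured by the log2 of window peaks per 100000 called peaks plus 0.5, mean of 2 libraries. The windows with many peaks stand in a few runs, 1 of them beside the dashed line that marks the Hbb genes, and the columns of block 4 at the right are sparse in most types.

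Peaks at the receptor genes' own start sites were less common still. Of the 197 genes, 111 had a peak within 500 bp of an annotated transcript start in some library and 28 had one in both libraries of some type. No such peak was called in any list for 86 genes, 43.7%, compared with 66.2% of other Olfr genes, 20.5% of the neighbours and 17.8% of the rest. The promoter of Olfr658 was called in 18 libraries, all from primary cells, and lacked a peak in CFUE 2 and ERY 2. The promoter of Olfr557 was called in 17 libraries, again from primary cells alone. The promoter of Olfr552 was called in 13 libraries, which were every library of LSK, CMP, GMP, MEP, CFUMK and iMK and CFUE 2. Olfr68, the second receptor gene from the globin genes on the lower-coordinate side, was called in 11 libraries, with both libraries of CMP, MEP, CFUE, ERY and CFUMK among them. Next came Olfr638 (11 libraries), Olfr1532-ps1 (10), Olfr701 (9) and Olfr640 (9), then Olfr646, Olfr593 and Olfr572 with 8 each.

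The gene bodies most often called were those of Olfr701 (22 libraries), Olfr643 (20), Olfr544 (18), Olfr658 (16) and Olfr699 (16), followed by Olfr2 and Olfr69 (15 each). Olfr643 is annotated over 138606 bp and spans many other receptor genes, so its body count is largely theirs. No peak was called in the body of 43 of the 197 genes.

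To describe the peaks as places rather than as counts, peaks called in both libraries of some type were merged across types, which gave 207473 elements in the genome with a median width of 250 bp. The receptor territory, which is the union of the 197 windows without the globin gap and covers 3.84 Mb, held 162 of them. That is 42.1 per Mb, against 78.8 per Mb over the genome. Of the 162, 82 lay between genes, 34 at a receptor promoter, 25 in an intron or untranslated part, 8 in a coding exon, 7 elsewhere in a gene body and 6 at the promoter of a gene of another family. The median element of the territory was called in 7 libraries and that of the genome in 8, and 6.17% of the territory's elements were called in 20 or more libraries, compared with 10.3% in the genome.

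Only 3 of the 162 elements were called in all 24 libraries. One was between genes, 7.44 kb from Olfr545, and the other 2 were the promoters of Trim21 and Trim68, ubiquitin ligase genes interspersed with the receptors. The element between genes is shown first below as the most widely called place in the territory that is not a start site, followed by the promoter elements of Olfr557 and Olfr552, shown as the receptor start sites called in most libraries whose sequence is free of untranslated exons. All are mm10 chromosome 7, plus strand. The first is printed without the outermost bases of its element (chr7:102506860-102507168), and the third is a stretch of a wider element (chr7:102597417-102597937). None of the printed stretches holds a full match to any of the motifs searched for, and near matches were not counted.

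Element near Olfr545, shortened, chr7:102506865-102507164, the element called in 24 libraries: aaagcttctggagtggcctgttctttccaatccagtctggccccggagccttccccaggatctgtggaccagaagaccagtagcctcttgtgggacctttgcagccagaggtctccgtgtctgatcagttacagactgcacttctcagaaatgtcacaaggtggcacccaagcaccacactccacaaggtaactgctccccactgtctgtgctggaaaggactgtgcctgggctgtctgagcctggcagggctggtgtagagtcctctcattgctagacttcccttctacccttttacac

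Olfr557 promoter element, chr7:102695402-102695651, called in 17 libraries: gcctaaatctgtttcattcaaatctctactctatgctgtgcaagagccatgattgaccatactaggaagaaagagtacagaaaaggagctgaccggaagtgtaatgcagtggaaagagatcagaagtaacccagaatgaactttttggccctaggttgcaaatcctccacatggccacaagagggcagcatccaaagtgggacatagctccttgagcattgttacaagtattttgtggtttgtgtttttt

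Olfr552 promoter, stretch of the element, chr7:102597528-102597769, the element called in 12 libraries: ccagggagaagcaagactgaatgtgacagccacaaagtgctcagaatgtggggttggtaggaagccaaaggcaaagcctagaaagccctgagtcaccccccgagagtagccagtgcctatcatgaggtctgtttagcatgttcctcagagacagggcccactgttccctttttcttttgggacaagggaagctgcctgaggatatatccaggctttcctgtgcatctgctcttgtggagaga

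The Olfr557 element was called in both libraries of CMP, GMP, MEP, ERY, CFUMK, iMK and NEU, in 1 library of LSK, CFUE and MON, and in neither cell line. The Olfr552 element was called in both libraries of LSK, CMP, GMP, MEP, CFUMK and iMK, and in no library of CFUE, ERY, MON or NEU. The CFUE 2 peak at the Olfr552 start lay outside that element.

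Taken as a whole, the receptor territory did not set the erythroid cells apart. Per 100000 called peaks, the 2 libraries of each type had 67.7 and 58.4 in LSK, 84.6 and 66.6 in CMP, 78.8 and 67.8 in GMP, 103 and 76.7 in MEP, 115 and 78.5 in CFUE, 76.5 and 70.5 in CFUMK, 90.04 and 112 in iMK and 104 and 88.1 in MON. They were 92.9 and 70.6 for ERY, and 54.3 and 58.1 for NEU. The values were 49.3 and 60.3 in G1E and 36.9 and 32.7 in G1E-ER4+E2. In every library the territory had fewer peaks per Mb than the genome, from 22.4% to 79.0% of the genome's density. The mean of CFUE and ERY was 89.3 ± 10.7 (SD of 2 type means) and that of the other 8 primary types 78.5 ± 15.7 (SD of 8 type means, 56.2 to 101). The difference of 10.7 was smaller than the 13.9 SD between libraries of one type. It turned to -8.06 when only peaks found in both libraries were counted and to -15.5 when every list was cut to the same number of its highest-scoring peaks. As plain counts, without scaling to list length, the erythroid libraries had 36.9 fewer peaks.

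The territory within 200 kb of the Hbb genes behaved differently. This distance was chosen after the values were seen, so what follows is a description with no test. Within it, peaks per 100000 were 26.2 in each CFUE library, 39.9 and 31.7 in ERY, and 19.9 and 20.6 in MEP. They were 11.5 and 6.65 in LSK, 15.7 and 12.7 in CMP, 16.03 and 7.53 in GMP, 16.8 and 14.2 in CFUMK and 17.4 and 18.8 in iMK. The monocytes had 3.05 and 8.43 and the neutrophils 1.84 and 4.74, the lowest type means. On this scale every CFUE and ERY library lay above every other library. As plain counts they did not: CFUE had 35 and 26 peaks and ERY 43 and 31, and 9 of the 16 other primary libraries reached the lowest erythroid count, with means of 33.5 in iMK, 33 in MEP, 31 in CFUMK and 30.5 in CMP against 30.5 in CFUE and 37 in ERY. MON and NEU had 2 to 11 peaks per list, G1E 5 and 6 and G1E-ER4+E2 6 and 7.

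The erythroid mean within 200 kb was 30.996 against 12.2 for the other 8 primary types, whose type means ran from 3.29 to 20.2. The ratio was 2.53, and the difference of 18.8 compares with an SD of 3.30 between libraries of one type. Without scaling to list length the ratio was 1.5 (33.75 against 22.5 peaks), and the difference of 11.25 compares with an SD of 7.76. In rising order of their means per 100000, neighbours among LSK, GMP, CMP, CFUMK, iMK and MEP each differed by less than the SD of 3.30, as did NEU and MON. Beyond 200 kb the ratio was 0.879 (58.3 against 66.3). The innate cells, MON and NEU, averaged 4.52 within 200 kb against 18.9 for the other 8 types, a ratio of 0.239, and 71.6 against 63.0 beyond it. These contrasts share 6 types, and each one's first group is among the other's controls. The globin gap, with the Hbb genes and the sites nearest them, is left out of these values.

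**Figure D2:**
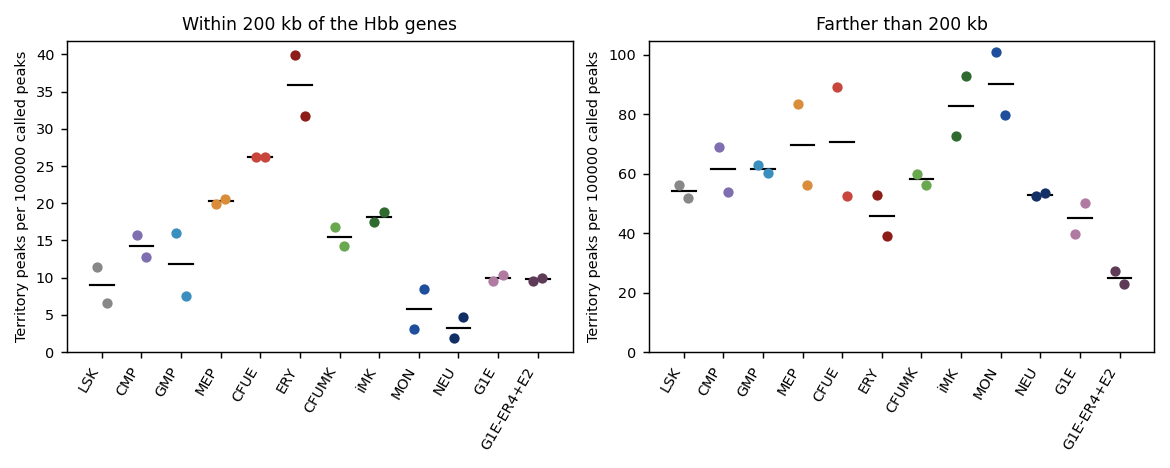
Territory peaks per 100000 called peaks in each library (points) by cell type, within 200 kb of the Hbb genes (left) and farther away (right), with lines at the mean of the 2 libraries. On the left the CFUE and ERY libraries stand highest, 26.2 to 39.9, and MON and NEU have the lowest means, 5.74 and 3.29, with LSK 2 (6.65) and GMP 2 (7.53) below MON 2 (8.43), while on the right the erythroid libraries lie among the others.

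In the erythroid cells, peaks within 200 kb of the globin genes were more often found in both libraries than peaks farther away. In CFUE, 57.1% and 80.8% of the peaks within 200 kb overlapped a peak of the other library, compared with 15.97% and 32.7% of those beyond. In ERY the shares were 51.2% and 54.8% against 26.3% and 42.1%. The same direction held in both libraries of CMP (77.1% and 96.2% against 65.6% and 90%), G1E and G1E-ER4+E2. It was reversed in both libraries of LSK and MON, and the libraries differed in GMP, MEP, CFUMK, iMK and NEU. Counting only the 35 territory elements called in both libraries of CFUE or ERY, 14 lay within 200 kb, where 30 of all 162 territory elements lay. By type, elements within 200 kb called in both libraries numbered 11 in CFUE, 10 in ERY and 11 in MEP. There were 17 in CFUMK, 16 in iMK, 13 in CMP, 12 in GMP, 3 in LSK, 2 in NEU and 1 in MON.

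**Figure D3:**
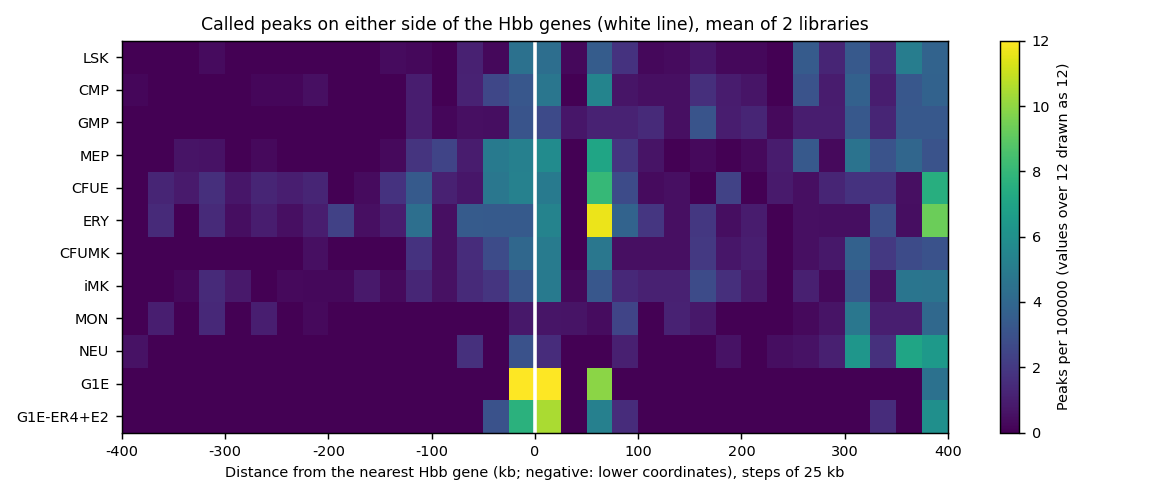
Heat map of called peaks per 100000 in steps of 25 kb on either side of the Hbb genes (white line), for the 12 cell types, mean of 2 libraries. The steps next to the genes are the brightest in the cell lines, and in the step from 50 to 75 kb on the higher-coordinate side ERY has 11.7 and CFUE 8.02 peaks per 100000, while MON has 0.383 and NEU 0.

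On the higher-coordinate side, which is upstream of the Hbb genes, 5 elements lay between Olfr65 and Olfr631, 57.04 to 62.3 kb away. The first and widest was called in 20 libraries and the second in 19, and both were present in the 2 libraries of MEP, CFUE, ERY, CFUMK, iMK, G1E and G1E-ER4+E2. Neither was called in NEU, and only the first in MON, in 1 library. The fifth, 62.3 kb away, was called in 13 libraries, which included both of CMP, MEP, CFUE, ERY, CFUMK and iMK and no library of MON, NEU or the cell lines. A further element at 89.5 kb was called in 22 libraries, in both of every primary type. On the lower-coordinate side, the promoter element of Olfr68, 34.7 kb away, and an element over the coding exon of Olfr69, 44.7 kb away, were called in 11 and 14 libraries, none of them MON or NEU.

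Of the elements called in both libraries of CFUE or ERY and in no other type, the 3 with most erythroid libraries are shown, as places called in red cell precursors alone. The first lies between Olfr65 and Olfr631, 61.7 kb from the Hbb genes. The second lies in the coding exon of Olfr625-ps1, 129 kb away, and the third at the promoter of Olfr605, 370 kb away. Each was called in 3 of 24 libraries, all CFUE or ERY. Capitals mark a match to the Olf/EBF motif TCCCNNGGG on either strand.

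Element between Olfr65 and Olfr631, chr7:103914805-103914975: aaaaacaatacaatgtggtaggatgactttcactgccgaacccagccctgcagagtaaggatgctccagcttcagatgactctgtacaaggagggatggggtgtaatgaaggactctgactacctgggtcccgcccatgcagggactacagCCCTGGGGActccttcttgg

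Olfr625-ps1 coding exon element, chr7:103683319-103683474: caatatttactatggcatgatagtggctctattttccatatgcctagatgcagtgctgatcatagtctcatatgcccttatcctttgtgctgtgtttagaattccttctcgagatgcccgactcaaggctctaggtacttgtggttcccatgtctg

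Olfr605 promoter element, chr7:103442751-103443029: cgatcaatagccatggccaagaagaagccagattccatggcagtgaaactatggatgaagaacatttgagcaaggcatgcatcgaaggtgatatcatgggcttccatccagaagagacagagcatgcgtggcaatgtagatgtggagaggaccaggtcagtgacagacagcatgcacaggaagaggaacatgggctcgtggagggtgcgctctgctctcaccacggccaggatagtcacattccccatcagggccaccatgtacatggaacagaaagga

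The element between Olfr65 and Olfr631 was called in 1 CFUE and 2 ERY libraries, and none of its 30-base words occurs more than once in the genome. The other 2 are less certain places, because 49.6% and 38.0% of their 30-base words occur more than once, and reads had been trimmed to 30 bases.

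Single receptor genes were then compared across cell types with limma, fitted over the 17038 gene windows with a mean of at least 3 peaks, on the log2 of peaks per 100000 with a prior of 1 peak, two-sided, with Benjamini-Hochberg adjusted p-values and a threshold of 0.05. For CFUE and ERY against the other 8 primary types, 16 of the 28 receptor windows were called, against a background of 57.4% of all windows. Of these 9 were higher (background 39.7%) and 7 lower (background 17.7%). The median log2 change of the 28 was 0.02 and that of all windows 0.27, so the whole table was shifted upward on this scale. The shares of the receptor genes called were therefore near the background in total. Split at 200 kb from the Hbb genes, the limit chosen after the values were seen, 8 of 11 windows within it were higher and 0 lower. Beyond it 1 of 17 was higher and 7 lower. This split is a description, and neighbouring windows that share peaks do not count as separate cases. The 8 lay 20.7 to 81.1 kb from the Hbb genes.

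Olfr65, the third receptor gene on the higher-coordinate side, had 8 and 10 window peaks in CFUE and 13 and 11 in ERY, or 5.98, 10.1, 12.1 and 11.3 per 100000. The 16 other primary libraries had 0 to 8.10 per 100000, median 3.26, and 3 of them reached the lowest erythroid value. The log2 change was 1.74 (SE 0.20, limma adjusted p = 1.3e-07), and it passed in 32 of 32 alternatives. Olfr631, the next gene outward, had 7.48, 14.1, 17.6 and 13.3 per 100000 in the erythroid libraries and 0.920 to 10.6, median 4.57, in the others, of which 1 reached the erythroid range. Its log2 change was 1.55 (SE 0.20, limma adjusted p = 5.15e-07). Both windows cover the cluster of elements between the pair of genes, so their peaks are largely the same ones.

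For Olfr632 the lowest erythroid library lay just above the highest of the other libraries. The share of all windows that separate in this way was not counted. It had 4.49 and 6.04 per 100000 in CFUE and 8.36 and 6.14 in ERY, with all 16 others at 0.579 to 4.36, median 1.76, and a log2 change of 1.45 (SE 0.25, limma adjusted p = 2.86e-05). Olfr64 rose by 1.24 (SE 0.22, limma adjusted p = 4.83e-05), with 5.24 to 11.1 per 100000 in the erythroid libraries and 0 to 8.73 in the others. On the other side of the Hbb genes, Olfr67 rose by 1.19 and Olfr69 by 1.17 (SE 0.24 and 0.28, limma adjusted p = 0.00017 and 0.000948), and 2 other libraries reached the lowest erythroid value in each case. Olfr630 and Olfr68 changed by 0.86 and 0.71. Olfr66, the nearest receptor gene on the higher-coordinate side, had a log2 change of 0.35 and was not called (limma adjusted p = 0.161).

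The windows next to the globin genes reach into the gap between them. Of all window peaks, 95.04% for Olfr66, 67.2% for Olfr67, 30.8% for Olfr64 and 22.9% for Olfr68 lay in the globin gap. Without the gap's peaks, an alternative added after the data were seen, Olfr66 and Olfr67 fell under the minimum count, and 15 of 26 receptor windows were called, 8 of them higher. Olfr64 then had a log2 change of 1.32 and Olfr68 of 0.96.

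The receptor genes that were lower in the erythroid cells lay far from the Hbb genes, and 4 of the 7 were in block 3. Olfr713 (log2 change -1.41, SE 0.37, limma adjusted p = 0.00271) had 0, 2, 1 and 0 peaks in the CFUE and ERY libraries, where the other 16 had a median of 2.51 per 100000. Olfr694 had 1, 1, 0 and 0 peaks (log2 change -1.37, limma adjusted p = 0.00038), and Olfr553, in block 1, had 1, 1, 1 and 0 (log2 change -1.27, limma adjusted p = 0.00056). With so few peaks the pooled ratios to the other types are wide, at 0.232 (95% exact counting interval 0.0469 to 0.703) for Olfr713, 0.179 (0.0213 to 0.672) for Olfr694 and 0.227 (0.0458 to 0.686) for Olfr553. Olfr692, Olfr695 and Olfr648 fell by 0.97, 0.96 and 0.69. Olfr700 fell by 0.68 and kept its call in 21 of 29 alternatives. The one distant gene that rose, Olfr548-ps1 at the start of block 1 (0.64, limma adjusted p = 0.0182), kept its call in 26 of 30.

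The balance of the calls depended on the scaling and on the fit. Without scaling to list length the median change of all windows moved to -0.28, and 4 receptor windows were higher and 11 lower. In a fit of 7 types whose library numbers form 2 consecutive runs, with the run as a term and without LSK, MON and NEU among the controls, 7 were higher and 11 lower, with a median of -0.05. With peaks of both libraries only, 11 were higher and 4 lower of 15. With lists cut to the same number of peaks, 5 were higher and 1 lower of 6. Olfr65, Olfr64, Olfr631 and Olfr632 were called higher in every alternative in which they could be tested.

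**Figure D4:**
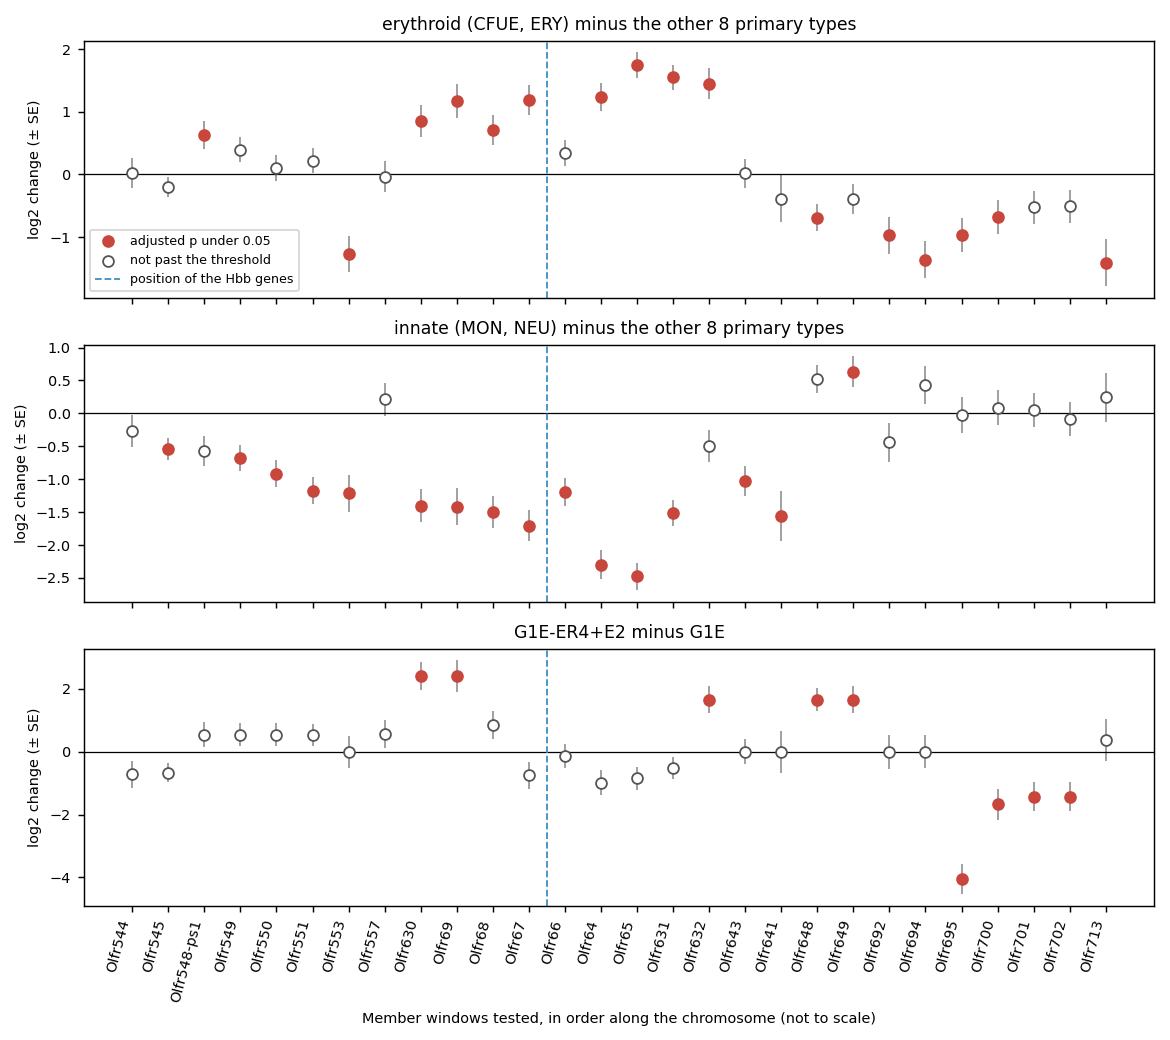
The log2 changes (± SE) of the 28 receptor windows tested, in chromosome order, in 3 comparisons, with the windows past an adjusted p of 0.05 marked and a dashed line at the Hbb genes. In the erythroid panel the windows beside the line rise, up to 1.74 at Olfr65, and in the innate panel the same windows fall, down to -2.48.

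Per 100000 called peaks, monocytes and neutrophils had the lowest type means beside the globin genes. In this comparison with the other 8 primary types, 16 of 28 receptor windows were called against a background of 26.9%. Of these 15 were lower, with 14% of all windows lower, and 1 was higher, with 12.9% of all windows higher. The median log2 change was -0.63 for the receptor windows and 0.04 for all windows. As a description at the same limit, 10 of 11 within 200 kb were lower, and beyond it 5 of 17 were lower and 1 higher. All 15 lower genes were in block 1. The MON and NEU libraries are numbered consecutively, directly after the second LSK library and apart from all others. The labels do not say what such numbers mark, so cell type and number run cannot be told apart in this comparison.

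Olfr65 had 1 and 1 window peaks in MON and 0 and 0 in NEU, against 0.579 to 12.1 per 100000, median 4.95, in the 16 others (log2 change -2.48, SE 0.20, limma adjusted p = 1.19e-09). The pooled ratio was 0.0809 (95% exact counting interval 0.0097 to 0.298). Olfr64 had 2, 1, 1 and 0 peaks and did not overlap the others, whose lowest value was 1.74 per 100000 against a highest innate value of 1.22 (log2 change -2.30, limma adjusted p = 2.25e-08). Olfr66 and Olfr551 also had groups that did not overlap, with log2 changes of -1.20 and -1.17. The share of all windows with such groups was not counted here either. Olfr67, Olfr641, Olfr631, Olfr68, Olfr69 and Olfr630 fell by 1.71, 1.56, 1.51, 1.505, 1.42 and 1.40. Olfr641 had a single innate peak, in NEU 2, and a pooled ratio of 0.0668 (0.00167 to 0.382), and Olfr630 had 3 innate peaks and a pooled ratio of 0.219 (0.0441 to 0.664).

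A second run of lower windows lay at the start of block 1, more than 1 Mb from the Hbb genes. Olfr553 fell by 1.21, Olfr551 by 1.17, Olfr550 by 0.92, Olfr549 by 0.68 and Olfr545 by 0.54, and these windows overlap one another. The window of Olfr550 also takes in the Trim21 promoter, 6.11 kb from that gene and called in all 24 libraries. The share of peaks at genes of other families in these windows was not counted. Olfr643 fell by 1.03. Olfr649, the last gene of block 1, was higher by 0.63 (limma adjusted p = 0.0467), with a call in 10 of 28 alternatives.

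Between the progenitors, MEP and CMP, 0 of 28 receptor windows were called (background 1.73%). At an unadjusted p under 0.05, 4 windows passed, and the smallest limma adjusted p was 0.0593. Olfr67 had 14 and 15 window peaks in MEP and 10 and 7 in CMP (log2 change 1.05, SE 0.42, limma adjusted p = 0.205), and Olfr65 had 10 and 13 in each of them (0.35, limma adjusted p = 0.687). With peaks of both libraries only, 8 of 15 windows were called, 7 of them higher in MEP, where 51.0% of all windows were called. In the fit of 7 types with the run of library numbers as a term, 2 of 28 were called, both lower in MEP.

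In the cell lines, which had the shortest lists, most receptor windows were near empty. Between G1E-ER4+E2 and G1E, 9 of 28 windows were called against a background of 16.4%, 5 higher (11.5% of all windows) and 4 lower (4.92%). Olfr630 and Olfr69 had 2 and 2 peaks in G1E-ER4+E2 and none in G1E, at least 1.12-fold higher when 3 counts over both G1E lists are taken as the limit that a count of 0 allows. Olfr632, Olfr648 and Olfr649 had 1 and 1 against 0 and 0, too few for a ratio. Olfr695 had 6 and 6 peaks in G1E and 0 and 0 in G1E-ER4+E2, at least 4.81-fold lower. Olfr700, Olfr701 and Olfr702, neighbours with overlapping windows, had 4, 3 and 3 peaks over both G1E lists and 1 each in G1E-ER4+E2, and their counting intervals reached ratios of 2.11 and above. Without the first G1E-ER4+E2 library 5 of the 9 remained. Most calls ended without scaling to list length, which left 1 higher and 1 lower, and with a prior not scaled to list length, which left 0 higher and 2 lower. Within 200 kb of the Hbb genes the territory had 5 and 6 peaks in G1E and 6 and 7 in G1E-ER4+E2 (9.91 and 9.79 per 100000), while beyond it 44.9 per 100000 in G1E compared with 25.0 in G1E-ER4+E2. The globin gap itself held 21 and 22 peaks in G1E and 30 and 37 in G1E-ER4+E2, compared with 1 to 29 in the primary libraries.

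Counted in 100 kb bins, receptor genes were in 43 bins of the interval, 30 of them without a gene of another family. The median mean count was 1.54 peaks per list in the 43 bins, 1.40 in the 30, 9.54 in the interval's bins without receptor genes and 2.92 over the genome. The fullest bins began at 103.8 Mb (11.1 peaks per 100000 over the primary lists, with the globin gap inside it), 102.5 Mb (9.32), 106.6 Mb (8.96), 103.9 Mb (7.43) and 104.1 Mb (6.46). The emptiest began at 108.6, 103.0, 108.7, 105.0 and 108.4 Mb, with 0.201 to 0.385 per 100000. Most of the bin at 106.6 Mb lies outside the receptor blocks, since block 3 begins at chr7:106675005.

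Of the 43 bins, 15 reached a mean of 3 peaks and were tested among 13124 bins of the genome. Of these 15, 7 hold no gene of another family. For the erythroid comparison 8 were called, 4 higher and 4 lower, against backgrounds of 60.8% in total, 29% higher and 31.8% lower. The bins at 103.9, 103.7 and 103.8 Mb rose by 1.41, 1.33 and 0.85, and that at 102.4 Mb by 0.45. Those at 106.6, 107.0, 104.1 and 104.5 Mb fell by 1.75, 1.32, 0.95 and 0.90. The bin at 103.9 Mb, which holds the elements between Olfr65 and Olfr631, had 11 and 15 peaks in CFUE and 22 and 15 in ERY, 3 and 8 in MON, and 1 in each NEU library. For the innate comparison 8 bins were called, 2 higher and 6 lower, against 36.6% in total, 13.1% higher and 23.6% lower. The balance turned with peaks of both libraries only (6 higher and 5 lower of 13) and with no filter (8 higher and 6 lower of 43). The bins at 103.7, 103.9, 103.8, 104.0, 102.5 and 102.4 Mb fell by 2.07, 1.66, 1.49, 1.27, 0.70 and 0.47, and those at 104.5 and 106.6 Mb rose by 0.88 and 0.75.

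For MEP and CMP 0 of 15 bins were called (background 4.49%), 3 had an unadjusted p under 0.05, and the smallest limma adjusted p was 0.0834. For the cell lines 2 bins were called, both lower in G1E-ER4+E2 (background 16.7%, 6.03% lower). The bin at 106.6 Mb had 16 and 13 peaks in G1E and 4 and 1 in G1E-ER4+E2, a log2 change of -2.79. Most of that bin lies outside block 3, so its count is not one of receptor genes alone. The bin at 106.7 Mb had 6 and 7 against 0 and 0, at least 5.19-fold lower. Block 3 as a whole had 11 and 18 peaks in G1E and 3 and 3 in G1E-ER4+E2.

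In every primary library the coding exons of the receptor genes took more of the territory's peaks than their length would give. They cover 186 kb, 4.85% of the territory. Their share of the territory's peaks was 31.2% and 24.4% in CFUE, 21.2% and 33.9% in MON, 24% and 21.7% in ERY, 18.7% and 12.2% in MEP and 15.5% and 18.3% in iMK. It was 10.3% and 13.9% in LSK, 11.6% and 5.88% in CMP, 13.7% and 10.3% in GMP, 9.03% and 10.1% in CFUMK and 11.9% and 6.12% in NEU. The cell lines had 1 to 3 such peaks each, or 3.85% and 5.71% in G1E and 8.70% and 13.0% in G1E-ER4+E2, so G1E 1 lay below the length share. In MON 2 the coding exons had 10.1 times the peak density of the rest of the territory. Coding exons of Olfr genes elsewhere also had a higher density than the rest of their windows, in every primary library but NEU 2. That density too was highest in MON, at 3.69 and 4.23 times.

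Coding exon peaks were less often found in both libraries than other territory peaks in every primary library except CMP 2 and CFUMK 1. In MON, 8.33% and 10.3% of the peaks in coding exons overlapped a peak of the other library, compared with 26.9% and 42.1% of the peaks elsewhere in the territory. In CFUE the shares were 20.8% and 47.4% against 27.4% and 49.2%. They were 14.3% and 27.3% against 45.1% and 75% in LSK, and 20.8% and 33.3% against 42.1% and 51.9% in ERY. In CMP 2, G1E and the first G1E-ER4+E2 library, where coding exons held 1 to 8 peaks, 100% of them overlapped one. In NEU, where they held 7 and 3, 0% did. The coding exons have a GC content of 46.2%, against 38.7% in the rest of the territory, and 23.2% of their 30-base words occur more than once in the genome, against 27.0%. Receptor genes resemble one another in their coding parts, so a peak in one may hold reads of another. The part of GC content and of shared sequence in these values was not tested. Of the 162 elements, 17 (10.5%) had more than 50% of their words repeated, compared with 2.16% of 20748 elements sampled across the genome.

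**Figure D5:**
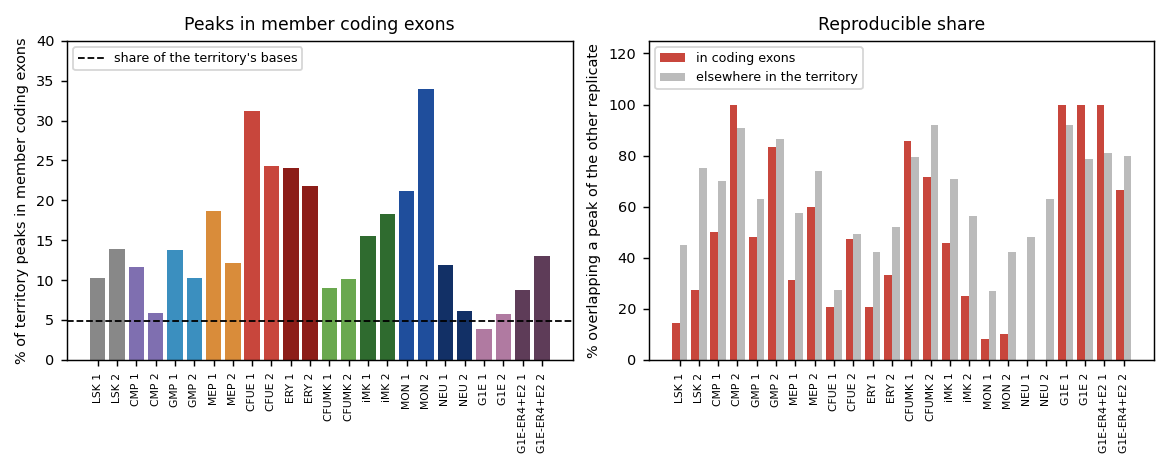
Share of territory peaks that lie in receptor coding exons in each library (left, dashed line at the exons' 4.85% share of the territory), and the share of those peaks, and of the peaks elsewhere in the territory, that overlap a peak of the other replicate (right). CFUE, ERY and MON have the tallest bars on the left, 21.2% to 33.9%, and the coding exon bars of MON and NEU on the right are low.

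Motifs were searched on both strands. AGATAA, bound by GATA factors, was present in 34 of the 162 territory elements (21.0%) and in 18.3% of all elements. It was in 9 of the 35 elements called in both libraries of CFUE or ERY (25.7%), in 6 of the 14 of these within 200 kb of the Hbb genes (42.9%), and in 20.5% of all CFUE or ERY elements of the genome. With 14 elements this is a description. The Olf/EBF motif TCCCNNGGG, E-box CAGCTG, homeodomain motif TAATTA and CTCF motif were in 3.09%, 14.2%, 2.47% and 1.23% of the territory elements and in 5.23%, 19.2%, 4.37% and 3.27% of all elements.

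The promoter table, with RefSeq sequences of 300 bases on the same build, held 168 of the 197 genes. AGATAA was in 28.6% of these promoters, in 27.8% of those of other Olfr genes and in 11.2% of all promoters. TAATTA, known from olfactory promoters as a homeodomain site, was in 13.7%, 19.6% and 5.29%. TCCCNNGGG was in 2.98%, 2.44% and 6.56%, and CAGCTG in 7.74%, 8.59% and 16.3%. Receptor promoters here and elsewhere in the genome were thus close to each other in AGATAA, TCCCNNGGG and CAGCTG, and a match is not a bound site. Base composition was not matched in these motif shares, and its part in them was not tested.

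A list of 24 genes set down for the olfactory sensory neuron and its receptor cascade was also followed. Among them is Stom, known from the red cell membrane, whose calls do not speak for the cascade. Promoter peaks were called in no library for Cnga2 and Cnga4 (subunits of the olfactory ion channel), Gng13 (a G protein subunit), Rtp1 (a receptor chaperone) and Gfy. The promoter of Omp, the marker of mature olfactory neurons, was called in 5 libraries. Those of Atf5, Kdm1a, Lbr, Ldb1, Ric8b and Stom, which are expressed beyond the nose, were called in all 24. Of 21 genes of the list with testable windows, 4 were higher and 2 lower in the erythroid cells, where 39.7% and 17.7% of all windows were. Gnal, the olfactory G protein alpha subunit, rose by 1.05 (limma adjusted p = 3.54e-07), Kdm1a, a histone demethylase, by 0.81, Stom, a red cell membrane protein gene, by 0.61 and Gng13 by 0.56, while Olfm1 fell by 0.63 and Ric8b by 0.49. In the innate cells 1 rose (Gnb1, 0.37) and 4 fell, of which Emx2 (-2.31) and Pde1c (-1.51) changed most, against 12.9% and 14% of all windows. Between MEP and CMP limma called 0, with 5 at an unadjusted p under 0.05, and 3 rose and 1 fell from G1E to G1E-ER4+E2, against 11.5% and 4.92%. The median change of the list was 0.18 in the erythroid comparison, beside 0.27 for all windows.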

How the data were processed

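ATAC-seq libraries were peak lists when deposited. Per the submitters' processing notes and the study's methods, the authors trimmed reads to 30 bases, used Bowtie 0.12.8 for alignment to mm10, dropped mitochondrial and unplaced alignments, and called peaks in each library with HOMER. SAMtools, for which the notes (1.6) and the methods give different versions, bcl2fastq and bedtools are named too, and the methods add F-Seq for signal tracks. The study states that its pipelines, unlike those of ENCODE, let reads align to sequences held in multiple copies. Neither the notes nor the ATAC-seq methods give the setting used. Each deposited list gives positions and a score, whose definition the sources used here do not give. The score served only to rank peaks when lists were cut to equal length.

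Peaks were counted in gene windows (20 kb flanks), promoters (500 bp around a start) and 100 kb bins, scaled per 100000 called peaks, and fitted with limma 3.58.1 (trend, robust; R 4.3.3) over all features with a mean of at least 3 peaks and a prior of 1 peak. The 24 libraries entered one fit of 12 group means. The fit was tried on simulated independent counts with a small share of windows changed. Here many windows changed and neighbours share peaks, so that trial does not speak for the calls above. A replicate is 1 library. Intervals and the limit for a count of 0 cover counting error only. Named genes were, per comparison, up to 6 of the largest rises and 6 of the largest falls past the threshold, the 3 receptor genes nearest Hbb on each side, up to 10 by promoter libraries and 6 by gene-body libraries. Some others were named after their values were seen, as examples. The members and lists were chosen with earlier results of these data known. Alternatives were other scalings, filters, windows, reproducible peaks and leaving out each library.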

Additional observations from a re-analysis of the deposited data

How the results depend on the processing

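The lists hold no read depth, and counts of calls moved with the filter and the window. Windows called in the erythroid comparison (16) became 6 with lists cut to the same number of peaks, 33 with a mean of at least 1 peak, 67 with no filter, 0 with the gene body alone, 2 with 5 kb flanks and 36 with 50 kb flanks. In the innate comparison (16) they became 6, 34, 63, 1, 2 and 36 in the same order. For G1E-ER4+E2 and G1E (9) they became 2 without scaling, 0 with cut lists, 15, 20, 0, 0 and 15 under those filters and windows, and 2 with an unscaled prior, an alternative added after the data were seen. Without the first G1E-ER4+E2 library 5 were called. For MEP and CMP (0) they became 1 without scaling, 4 with cut lists, 8 with reproducible peaks, 1 with a mean of at least 1 peak, 1 with no filter, 2 with an unscaled prior and 2 in the fit of 7 types with the run of library numbers as a term. Among bins, the erythroid count (8) became 4 with cut lists, the innate count (8) 3 with cut lists and 14 with no filter, the MEP count (0) 1 with cut lists, 6 with reproducible peaks and 1 with an unscaled prior, and the cell line count (2) 8 with reproducible peaks. The cause was not tested, except that stricter filters and narrower windows test fewer genes. The territory difference (10.7) turned to -36.9 without scaling, -15.5 with cut lists and -8.06 with reproducible peaks. Within 200 kb the difference (18.8) was 11.25 without scaling and 12.1 within 100 kb.

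Leaving out 1 library at a time gave 11 to 16 erythroid, 13 to 18 innate, 0 to 0 MEP and 5 to 9 cell line windows, and 6 to 12, 5 to 8, 0 to 0 and 2 to 3 bins. The erythroid bins were 12 without CFUE 1, and the innate bins 5 without MON 1, MON 2 or NEU 2. The territory difference ran from 1.56 without CFUE 1 to 19.9 without CFUE 2, with 5.17 without ERY 1 and 16.3 without ERY 2, and that within 200 kb from 16.7 to 20.8. No library number recurs between cell types, but those of 7 types form 2 consecutive runs, and the labels do not say what a run marks. Over 21 pairs of these types, the correlation of the difference between runs ran from -0.18 to 0.25 over the windows tested, with 6 pairs over 0.1. With the run as a term, the erythroid windows were 18, 7 higher and 11 lower, of which 14 were among the 16, and the MEP windows 2, both lower. The bins were 8 and 0. No such term was fitted for the innate comparison, where the numbers of MON and NEU directly follow that of the second LSK library. Cell type and number run cannot be told apart there.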
